A study of Drosophila melanogaster with 8 samples.

Results

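The comparison asked which genes of the Drosophila melanogaster embryo responded differently to a set of 4 neural transcription factors in their wild-type form and to the same set with 3 members fused to foreign regulatory domains. All 8 of the 8 RNA sequencing libraries of the study entered it, as 4 groups of 2. Quad embryos carried the driver da-Gal4 over UAS transgenes for ase, Kr, wor and SoxN, and Ctrl embryos, the driver-only embryos of the same experiment, carried da-Gal4 over an OregonR chromosome set. QuadD embryos carried da-Gal4 over UAS transgenes for ase-Vp16, Kr, wor-EnR and SoxN-EnR, and Ctrl-D embryos were the da-Gal4 over OregonR embryos collected with them. The driver was thus present in every group, and OregonR only in the controls, so that strain background cannot be told apart from the transgenes. Each library came from 50 mg of frozen whole embryos of stages 8 to 16, and the labels call the replicates biological.

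The 4 factors are early regulators of the fly nervous system. ase (asense) is a proneural bHLH protein of neuroblasts, the neural stem cells of the fly, SoxN (SoxNeuro) is a Sox protein of the neuroectoderm, wor (worniu) is a zinc finger protein of the Snail family in neuroblasts, and Kr (Krüppel) is a zinc finger protein that acts first in segmentation and later in the sequence of temporal factors that neuroblasts pass through. VP16 is a viral domain that activates transcription and EnR is the repressor domain of Engrailed, and such a fusion is designed to keep the DNA-binding part of a factor and fix the sign of its output. By the labels, Kr was unfused in both sets. da-Gal4 drives UAS transgenes in nearly all embryonic cells, which means that the RNA of whole embryos mixes tissues; fewer cells of a type and less RNA per cell cannot be told apart in it.

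For every gene the effect of Quad is its log2(RPKM + 1) in Quad minus that in Ctrl, the effect of QuadD is QuadD minus Ctrl-D, and the difference of effects is the first minus the second; 1 unit is a 2-fold change. RPKM is the deposited read number per transcript length and library size. A positive difference therefore says that Quad raised a gene more, or lowered it less, than QuadD did. The control gap, Ctrl minus Ctrl-D, enters this difference with a minus sign. It is given beside the genes where it passed the same test and beside some others. Each experiment was sequenced on 1 lane, so lane and experiment cannot be told apart, and no difference between Quad and QuadD was tested without the controls. The error given with a difference is the standard error of limma's fit to 2 libraries per group, and the p-values are adjusted over the 10775 genes that reached 1 RPKM in at least 2 libraries, of 17321 in the tables.

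Libraries were unequal in depth and in spread. The deposited counts summed to 5660187 and 6171860 for Quad against 5908806 and 5783886 for Ctrl, and to 6740835 and 2922038 for QuadD against 2893271 and 2765722 for Ctrl-D; they hold only part of the reads. Replicates were farthest apart in Quad, where the spread of replicate 2 minus replicate 1 over genes was 0.294 log2 units, against 0.179 in Ctrl, and it was 0.167 in QuadD, against 0.262 in Ctrl-D. Of the markers of cell types, the 5 of neurons summed to 389 and 242 RPKM in Quad against 184 and 178 RPKM in Ctrl, and to 349 and 323 RPKM in QuadD against 149 and 146 RPKM in Ctrl-D. The 5 epidermal markers summed to 95.5 and 74.9 RPKM in Quad against 1294 and 1765 RPKM in Ctrl, and to 29.5 and 21.3 RPKM in QuadD against 856 and 1103 RPKM in Ctrl-D. The 5 muscle markers summed to 2844 and 1557 RPKM in Quad against 2511 and 3494 RPKM in Ctrl, and to 1133 and 975 RPKM in QuadD against 1670.3 and 1926 RPKM in Ctrl-D. The 5 neuroblast markers, which include transgenes of the sets, summed to 986 and 1019 RPKM in Quad against 325 and 308 RPKM in Ctrl, and to 1297 and 1311 RPKM in QuadD against 439 and 361 RPKM in Ctrl-D. Every one of these 20 markers exceeded 1 RPKM in at least 1 library, and of them only ect, an epidermal one, passed the test of the difference. The part of cell composition in the differences below was not tested.

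Of the 4 misexpressed genes, only Kr passed the test of the difference. Its levels were 96.1 and 109 RPKM in Quad against 46.1 and 35.2 RPKM in Ctrl, and 64.8 and 67.4 RPKM in QuadD against 69.2 and 57.5 RPKM in Ctrl-D. Both Quad libraries exceeded both Ctrl libraries, whereas the QuadD and Ctrl-D libraries overlapped. The effect was 1.33 in Quad and 0.07 in QuadD, a difference of 1.26 ± 0.20 (SE; adjusted p = 0.0138), and the call was lost without Ctrl replicate 2, either QuadD library or Ctrl-D replicate 1 (1.07 to 1.29). Kr is labelled as a transgene of both sets, but no rise of its RNA was measured in the libraries labelled QuadD, and RPKM does not separate transgene from endogenous RNA. ase stood at 109 and 107 RPKM in Quad against 34.1 and 28.3 RPKM in Ctrl, and 122 and 118 RPKM in QuadD against 38.9 and 39.05 RPKM in Ctrl-D. wor stood at 172 and 188 RPKM in Quad against 46.3 and 42.01 RPKM in Ctrl, and 253 and 265 RPKM in QuadD against 60.7 and 60.4 RPKM in Ctrl-D. SoxN stood at 97.8 and 121 RPKM in Quad against 85.6 and 83.97 RPKM in Ctrl, and 134 and 129.6 RPKM in QuadD against 107 and 91.1 RPKM in Ctrl-D. In these 3 genes both misexpression groups lay above their controls, the effects passed the test in both sets, and the differences of effects did not, with 95% intervals of -0.16 to 0.50 for ase, -0.36 to 0.20 for wor and -0.44 to 0.32 for SoxN.

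The genes that belong to the constructs were also read. en (engrailed), the source of the repressor domain, differed by -0.13 with an interval of -0.56 to 0.30, and da (daughterless), the source of the driver's promoter, by 0.01 with an interval of -0.33 to 0.35; neither passed. w (white), an ABC transporter for eye pigment precursors and a common marker of fly transgenes, had 25.95 and 29.2 RPKM in Quad against 16.97 and 16.1 RPKM in Ctrl, and 60.7 and 54.8 RPKM in QuadD against 14.8 and 15.3 RPKM in Ctrl-D. It rose in both sets, and the QuadD libraries were the highest of the 8. The difference was -1.17 ± 0.16 (SE; adjusted p = 0.00679), and the call was kept without each library in turn. bw (brown), the transporter that pairs with White, had 6.86 and 4.75 RPKM in Quad against 24.9 and 24.6 RPKM in Ctrl, and 21.2 and 20.2 RPKM in QuadD against 18.1 and 21.3 RPKM in Ctrl-D. Its Quad libraries were the lowest of the 8, its QuadD and Ctrl-D libraries overlapped, and the difference was -2.01 ± 0.24 (SE; adjusted p = 0.00314), also kept without each library in turn.

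The effects of both sets were much alike in direction. Of the 10775 genes, 5603 passed in Quad against Ctrl, or 52% of those tested, of which 3004 rose (27.9%) and 2599 fell (24.1%). In QuadD against Ctrl-D 5562 genes passed, or 51.6%, of which 2739 rose (25.4%) and 2823 fell (26.2%). Both effects passed with the same sign in 4137 genes (38.4%), and with opposite signs in 55 (0.51%). Over all genes the effects correlated with Pearson's r = 0.827 and Spearman's rho = 0.814, and 84.1% had the same sign; in the 7595 genes whose mean reached 10 RPKM in some group r was 0.868. These are descriptions over genes, which are not independent replicates. Neuroblast genes illustrate the shared part: mira (miranda), a carrier of cell fate determinants in dividing neuroblasts, had 541 and 562 RPKM in Quad against 175 and 173 RPKM in Ctrl, and 681 and 688 RPKM in QuadD against 252 and 189.9 RPKM in Ctrl-D. Its effects were 1.66 in Quad and 1.64 in QuadD, and the interval of the difference was -0.37 to 0.41. CycE (Cyclin E), which drives entry into S phase, had effects of 1.47 in Quad and 1.32 in QuadD, a difference of 0.15 with an interval of -0.29 to 0.59. For E2f1, a transcription factor of S phase genes, the interval was -0.44 to 0.33, for stg (string), the phosphatase that starts mitosis, -0.59 to 0.16, and for dap (dacapo), the Cyclin E inhibitor, -0.49 to 0.09. None of these 4 cell cycle genes passed the test, and each of their intervals stayed within a 2-fold difference.

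**Figure D1:**
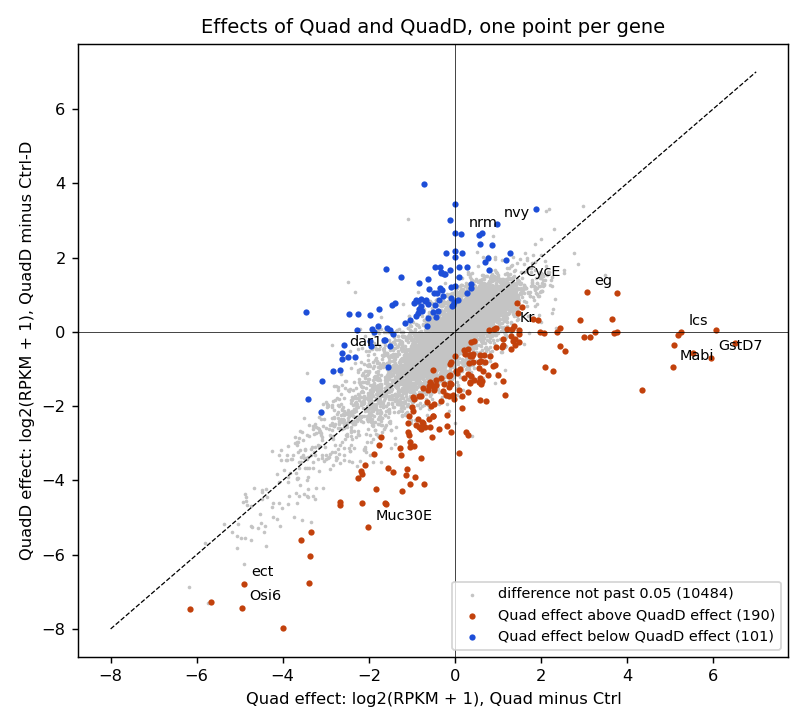
Effect of QuadD (y axis, QuadD minus Ctrl-D) against effect of Quad (x axis, Quad minus Ctrl), both in log2(RPKM + 1), 1 point for each of 10775 genes. Points on the dashed diagonal have equal effects; 190 genes (orange) lie below it and 101 (blue) above it with an adjusted p under 0.05, and some genes that the text describes, such as GstD7, Mabi and nvy, are labelled.

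A minority of genes differed. The test of the difference was passed by 291 genes, or 2.7% of those tested, and 1759 had an unadjusted p under 0.05. Quad's effect lay above QuadD's in 190 of them (1.76%) and below it in 101 (0.937%). In 247 of the 291 the difference was at least 1 log2 unit in size, and in 288 the Quad and QuadD libraries did not overlap, as they did not in 6119 or 56.8% of all genes tested. The Ctrl and Ctrl-D libraries did not overlap in 184 of the 291 (63.2%), and in 6515 or 60.5% of all genes tested. The number of calls depended on single libraries. It was 495 without Quad replicate 1, 141 without Ctrl replicate 1 and 126 without Ctrl replicate 2, 183 without QuadD replicate 1 and 145 without QuadD replicate 2, and 192 without Ctrl-D replicate 1 and 188 without Ctrl-D replicate 2. In all 8 of these fits 89 genes kept their call, 68 of the higher and 21 of the lower ones. Not all of the 291 met the level filter in each fit. Without 1 Quad library 271 were tested, without 1 QuadD library 279 and without 1 Ctrl library 288. The rest had reached 1 RPKM in only 2 libraries, 1 of them the library left out. No called gene changed the sign of its difference in any alternative run.

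The called genes fell into these classes by their own effects. Of the 190 higher genes, 72 fell in both sets, less in Quad, and 44 fell in QuadD with no call in Quad. A further 39 rose in Quad with no call in QuadD, 30 rose in Quad and fell in QuadD, and 5 rose in both. Of the 101 lower genes, 35 rose in QuadD with no call in Quad, 23 fell in Quad with no call in QuadD, 20 fell in Quad and rose in QuadD, 12 rose in both, more in QuadD, and 11 fell in both, more in Quad. A missing call in 1 set does not show that the gene did not respond there.

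In 50 of the called genes both effects passed with opposite signs (0.464% of genes tested), and 24 of them kept the call of the difference without each library in turn. The number was 82 without Quad replicate 1, 24 without each Ctrl library, 32 without QuadD replicate 1 and 29 without QuadD replicate 2. Among those whose mean reached 10 RPKM in some group and that bear a gene name, 17 rose in Quad and fell in QuadD. Mabi (mabiki) led them, with 137 and 150.2 RPKM in Quad against 3.77 and 2.94 RPKM in Ctrl, and 2.38 and 3.87 RPKM in QuadD against 5.43 and 8.6 RPKM in Ctrl-D. Both Quad libraries stood far above the other 6, and the QuadD libraries were below those of Ctrl-D. Its effects were 5.06 in Quad and -0.96 in QuadD, a difference of 6.02 ± 0.34 (SE; adjusted p = 0.000107). Cyp6a8, a cytochrome P450, had 27.02 and 27.5 RPKM in Quad against 12.8 and 10.6 RPKM in Ctrl, and 4.13 and 3.74 RPKM in QuadD against 13.1 and 17.2 RPKM in Ctrl-D. The 4 groups did not overlap, with Quad highest and QuadD lowest, and the difference was 2.86 ± 0.24 (SE; adjusted p = 0.00049). Lip4, a lipase, had 45.8 and 44.8 RPKM in Quad against 25.3 and 28.5 RPKM in Ctrl, and 8.65 and 7.64 RPKM in QuadD against 30.6 and 33.5 RPKM in Ctrl-D. Quad was again the highest group and QuadD the lowest, and the difference was 2.59 ± 0.17 (SE; adjusted p = 0.000172). Hexo2, a hexosaminidase, had 32.8 and 23.9 RPKM in Quad against 16.4 and 18.98 RPKM in Ctrl, and 5.18 and 5.38 RPKM in QuadD against 13.5 and 16.2 RPKM in Ctrl-D, and its difference was 1.97 ± 0.25 (SE; adjusted p = 0.0047). Calls of all 4 held without each library in turn.

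The rest of this class is given by genes picked after their values were seen, several of them genes of enzymes. Ect3, a beta-galactosidase, had 137 and 116 RPKM in Quad and 50.98 and 48.7 RPKM in QuadD, against 54.1 and 60.3 RPKM in Ctrl and 66.03 and 61.2 RPKM in Ctrl-D. Fuca, an alpha-fucosidase, had 39.3 and 37.4 RPKM in Quad and 14.01 and 11.1 RPKM in QuadD, against 21.8 and 21.1 RPKM in Ctrl and 18.5 and 22.3 RPKM in Ctrl-D. Their differences were 1.47 ± 0.15 (SE; adjusted p = 0.00164) and 1.47 ± 0.20 (SE; adjusted p = 0.00693), with every left-out library leaving the call in place. Pepck, the enzyme that commits carbon to glucose synthesis, had 323 and 376 RPKM in Quad and 237 and 189 RPKM in QuadD, against 262 and 283 RPKM in Ctrl and 319.6 and 340.0 RPKM in Ctrl-D. The difference of 0.99 ± 0.17 (SE; adjusted p = 0.019) was lost without either Ctrl library, QuadD replicate 2 or either Ctrl-D library (0.83 to 1.05). Sr-CI, a scavenger receptor of hemocytes, had 20.6 and 18.6 RPKM in Quad and 11.1 and 7.86 RPKM in QuadD, against 13.3 and 12.6 RPKM in Ctrl and 17.2 and 17.4 RPKM in Ctrl-D. Its difference was 1.39 ± 0.24 (SE; adjusted p = 0.0171), lost without either Ctrl library, QuadD replicate 2 or either Ctrl-D library (1.16 to 1.42). Cyt-b5-r differed by 1.00, Idgf6 by 1.02, lbk by 0.98 and stas by 0.66, and the call of Cyt-b5-r was kept without each library. That of Idgf6 was lost without either Quad library, Ctrl replicate 1, QuadD replicate 1 or either Ctrl-D library (0.82 to 1.08), that of lbk without Ctrl replicate 2, QuadD replicate 2 or Ctrl-D replicate 1 (0.88 to 0.90), and that of stas without either Quad library, either Ctrl library, either QuadD library or either Ctrl-D library (0.59 to 0.73). The 4 hemocyte markers, 2 of which exceeded 1 RPKM in some library, summed to 55.9 and 65.6 RPKM in Quad against 157 and 166 RPKM in Ctrl, and to 44.3 and 42.9 RPKM in QuadD against 152 and 154 RPKM in Ctrl-D; their part in the difference of Sr-CI was not tested.

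Developmental regulators were the other named genes of this class. BobA, a member of the Bearded family of small Notch pathway inhibitors, had 207 and 315 RPKM in Quad against 162 and 139.7 RPKM in Ctrl, and 142 and 132 RPKM in QuadD against 323 and 292 RPKM in Ctrl-D. It has near-identical neighbouring copies among which reads may have been split, and its control gap passed as well (-1.03, adjusted p = 0.0344), with Ctrl-D at the level of the highest Quad library. The difference of BobA was 1.92 ± 0.25 (SE; adjusted p = 0.00471), and it was kept without each library. Brd (Bearded), the founding member, had 211 and 278 RPKM in Quad against 162 and 137 RPKM in Ctrl, and 175 and 187 RPKM in QuadD against 361 and 279 RPKM in Ctrl-D, with a control gap of -1.09 (adjusted p = 0.0259). Its difference was 1.51 ± 0.23 (SE; adjusted p = 0.0101), lost without Ctrl replicate 2 (1.39). D (Dichaete), a Sox protein of the neuroectoderm and of neuroblasts, had 143 and 181 RPKM in Quad against 106 and 111 RPKM in Ctrl, and 86.04 and 102 RPKM in QuadD against 189.6 and 179.8 RPKM in Ctrl-D. Here too the Ctrl-D libraries reached the level of Quad, the control gap passed (-0.76, adjusted p = 0.0315), and the difference was 1.54 ± 0.18 (SE; adjusted p = 0.00258), kept without each library. ems (empty spiracles), a head gap gene that also acts in brain neuroblasts, had 69.7 and 82.02 RPKM in Quad against 45.04 and 49.3 RPKM in Ctrl, and 39.9 and 34.98 RPKM in QuadD against 63.2 and 54.03 RPKM in Ctrl-D. Quad was the highest and QuadD the lowest group, with no overlap, and the difference was 1.30 ± 0.18 (SE; adjusted p = 0.00616), kept without each library. btd (buttonhead), a zinc finger gene of the same head region, had 16.8 and 20.5 RPKM in Quad against 12.9 and 11.5 RPKM in Ctrl, and 11.1 and 12.3 RPKM in QuadD against 21.3 and 16.4 RPKM in Ctrl-D. The difference of btd was 1.21 ± 0.24 (SE; adjusted p = 0.0341) and was lost without Quad replicate 2, either Ctrl library, either QuadD library or Ctrl-D replicate 1 (1.03 to 1.28). Its Quad and Ctrl-D libraries overlapped, as did its QuadD and Ctrl libraries. The control gap of -0.58 did not pass the test (adjusted p = 0.0943).

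In the reverse class, 10 genes within the same limits fell in Quad and rose in QuadD. Of these, sens, sv, cato and cpo are known from the peripheral nervous system. sens (senseless), a zinc finger protein of sensory organ precursors, had 9.96 and 14.2 RPKM in Quad against 20.3 and 19.3 RPKM in Ctrl, and 43.3 and 47.9 RPKM in QuadD against 27.2 and 22.9 RPKM in Ctrl-D. The QuadD libraries were the highest and the Quad libraries the lowest of the 8, and the difference was -1.53 ± 0.24 (SE; adjusted p = 0.0112), lost without either Ctrl library, QuadD replicate 2 or Ctrl-D replicate 2 (-1.57 to -1.41). sv (shaven), the fly Pax2 gene, needed in the support cells of sensory bristles, had 12.1 and 10.2 RPKM in Quad against 22.97 and 17.4 RPKM in Ctrl, and 24.3 and 28.6 RPKM in QuadD against 15.4 and 12.3 RPKM in Ctrl-D. Its difference was -1.69 ± 0.26 (SE; adjusted p = 0.0101), lost without Ctrl replicate 1 or QuadD replicate 2 (-1.58 to -1.50). cato (cousin of atonal), a bHLH gene of sensory neuron precursors, had 7.27 and 8.15 RPKM in Quad against 15.4 and 13.8 RPKM in Ctrl, and 27.4 and 19.98 RPKM in QuadD against 12.3 and 17.9 RPKM in Ctrl-D. Its difference was -1.47 ± 0.29 (SE; adjusted p = 0.0368), lost without either Quad library, either Ctrl library, QuadD replicate 1 or Ctrl-D replicate 1 (-1.54 to -1.21). cpo (couch potato), an RNA-binding protein gene of the peripheral nervous system, had 40.3 and 27.01 RPKM in Quad against 52.6 and 50.8 RPKM in Ctrl, and 57.1 and 57.2 RPKM in QuadD against 33.5 and 34.1 RPKM in Ctrl-D. Its effects were -0.63 in Quad and 0.74 in QuadD, and the difference of -1.37 ± 0.23 (SE; adjusted p = 0.0153) was lost without either Ctrl library, either QuadD library or either Ctrl-D library (-1.39 to -1.35). The Quad and Ctrl-D libraries of cpo overlapped, and its control gap of 0.60 did not pass the test (adjusted p = 0.0854).

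Other members of this class pattern tissues elsewhere. lab (labial), the most anterior Hox gene, had 6.19 and 6.57 RPKM in Quad against 9.96 and 11.6 RPKM in Ctrl, and 18.3 and 17.4 RPKM in QuadD against 10.3 and 8.68 RPKM in Ctrl-D. Its groups of misexpressing embryos lay on opposite sides of both controls, the difference was -1.52 ± 0.22 (SE; adjusted p = 0.0077), and it was lost without Ctrl replicate 2 (-1.42). Hand, a bHLH gene of the heart and visceral muscle, had 11.6 and 7.36 RPKM in Quad against 22.3 and 16.1 RPKM in Ctrl, and 23.3 and 25.1 RPKM in QuadD against 13.03 and 14.7 RPKM in Ctrl-D. Its difference was -1.72 ± 0.31 (SE; adjusted p = 0.0222), lost without Ctrl replicate 1, either QuadD library or either Ctrl-D library (-1.80 to -1.50). peb (pebbled or hindsight), a zinc finger gene of the amnioserosa, gut and tracheae, had 31.6 and 32.1 RPKM in Quad against 58.2 and 52.2 RPKM in Ctrl, and 80.1 and 69.4 RPKM in QuadD against 55.3 and 46.05 RPKM in Ctrl-D. tup (tailup), the fly Islet gene of motor neurons and dorsal ectoderm, had 52.5 and 55.5 RPKM in Quad against 80.97 and 72.7 RPKM in Ctrl, and 115 and 118 RPKM in QuadD against 78.5 and 80.6 RPKM in Ctrl-D. In both genes the Quad libraries lay below, and the QuadD libraries above, all 4 control libraries. The difference was -1.32 ± 0.17 (SE; adjusted p = 0.00476) for peb and -1.04 ± 0.12 (SE; adjusted p = 0.00314) for tup, and both calls were kept without each library. The class also held Ptx1, a homeobox gene, with a difference of -0.94, lost without either Ctrl library, either QuadD library or either Ctrl-D library (-1.01 to -0.87), and Alh, which had a control gap past the test (0.63, adjusted p = 0.0253) and a difference of -0.85, lost without either Ctrl library or QuadD replicate 1 (-0.86 to -0.78).

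**Figure D2:**
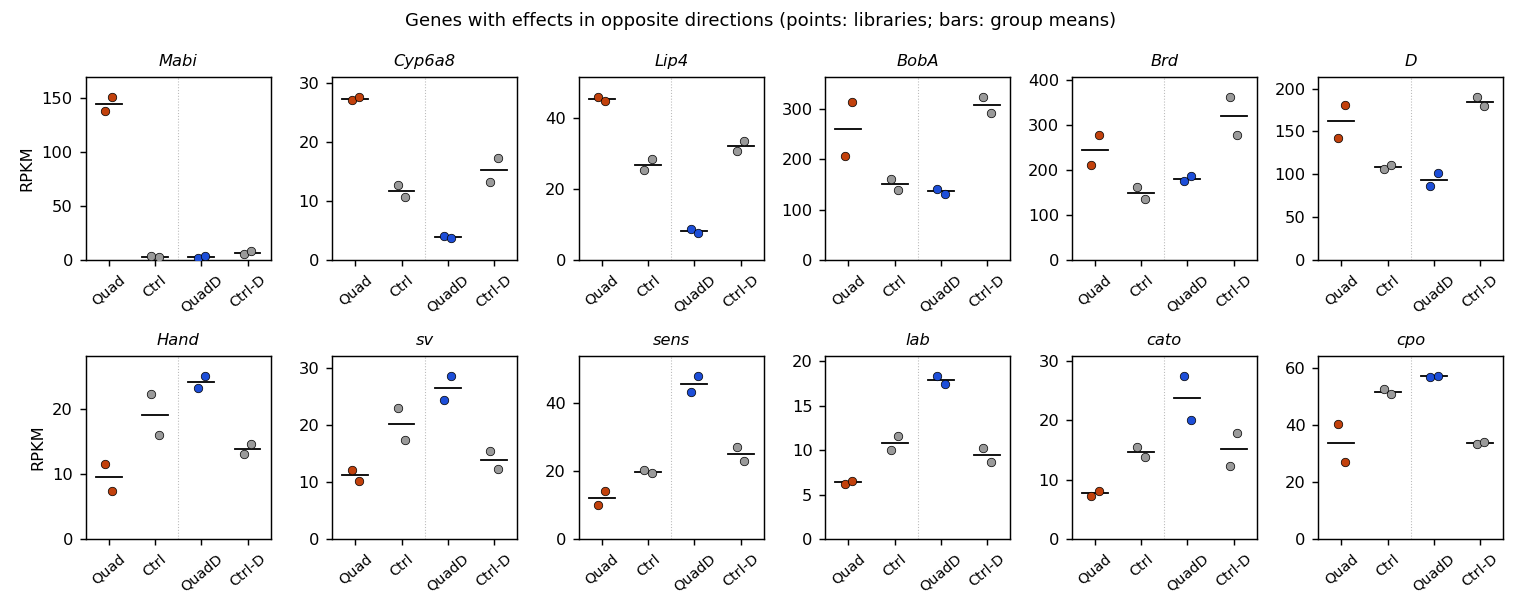
RPKM of 12 genes whose effects had opposite signs, 1 panel per gene, with 2 points per group for the libraries and a bar for the group mean; the dotted line separates the experiments and each y axis starts at 0. In the upper row Quad lies above Ctrl and QuadD below Ctrl-D, and in the lower row the order is the reverse. For BobA, Brd and D the Ctrl-D libraries reach or exceed the Quad level, and for cpo the Quad and Ctrl-D libraries overlap.

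The median difference of sensory organ genes lay below 0. Of 16 tested members of a list for these organs, 5 were called, all with Quad's effect below QuadD's (31.2% against 2.7% of all genes), and the median difference over the list was -0.64, against 0.06 over all genes. The list's median effect was -0.47 in Quad and -0.15 in QuadD. Beside sens, sv and cato, the called members were unc, a gene of the basal bodies of sensory cilia, and dila (dilatory), also of ciliated sensory neurons. unc had 1.9 and 3.29 RPKM in Quad against 3.47 and 2.86 RPKM in Ctrl, and 11.2 and 12.5 RPKM in QuadD against 3.4 and 3.32 RPKM in Ctrl-D. Its QuadD libraries stood above the other 6, and the difference was -1.79 ± 0.31 (SE; adjusted p = 0.019), lost without either Ctrl library, either QuadD library or either Ctrl-D library (-1.90 to -1.69). dila had 0.615 and 0.777 RPKM in Quad against 4.37 and 4.13 RPKM in Ctrl, and 3.12 and 2.98 RPKM in QuadD against 3.15 and 4.43 RPKM in Ctrl-D, so that here the Quad libraries stood below the other 6. The difference was -1.40 ± 0.28 (SE; adjusted p = 0.0381), lost without either Quad library, either Ctrl library, either QuadD library or Ctrl-D replicate 1 (-1.47 to -1.21). ato (atonal), the proneural gene of chordotonal organs and a member of the list, differed by 1.43 with an interval of 0.42 to 2.44 and did not pass. sc (scute), a proneural gene of bristles that the list of neuroblast genes holds, differed by 0.39 with an interval of -0.15 to 0.93 and did not pass either.

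A further 3 genes of neurons and their targets had the larger rise in QuadD. nvy (nervy), a transcriptional co-regulator of the ETO family expressed in neurons, had 42.5 and 36.9 RPKM in Quad against 20.01 and 19.5 RPKM in Ctrl, and 169 and 212 RPKM in QuadD against 25.98 and 23.4 RPKM in Ctrl-D. It rose in both sets, by 0.97 in Quad and 2.89 in QuadD, and the difference was -1.92 ± 0.18 (SE; adjusted p = 0.00119). nrm (neuromusculin), an immunoglobulin-domain adhesion protein gene of peripheral nervous system and muscle precursors, had 8.1 and 10.2 RPKM in Quad against 9.06 and 7.23 RPKM in Ctrl, and 50.3 and 60.5 RPKM in QuadD against 8.00 and 8.23 RPKM in Ctrl-D. Only the QuadD libraries stood apart, with an effect of 2.62 against 0.15 in Quad, and the difference was -2.47 ± 0.24 (SE; adjusted p = 0.00128). side (sidestep), a muscle surface protein that attracts motor axons, had 41.2 and 32.1 RPKM in Quad against 19.6 and 19.4 RPKM in Ctrl, and 93.02 and 97.5 RPKM in QuadD against 18.3 and 17.6 RPKM in Ctrl-D, a difference of -1.48 ± 0.18 (SE; adjusted p = 0.00331). Calls of all 3 held without each library in turn, and their control gaps lay between -0.31 and 0.12. The summed neuron markers were higher in QuadD than in Ctrl-D as well and spread widely in Quad; their part in these differences was not tested.

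Another 3 genes of the neural lineage were named after their values were seen. spdo (sanpodo), a regulator of Notch in asymmetric division, had 117 and 120.2 RPKM in Quad and 275 and 279.8 RPKM in QuadD, against 50.5 and 45.5 RPKM in Ctrl and 65.9 and 60.9 RPKM in Ctrl-D. insb (insensible), a nuclear co-repressor in the neural lineage, had 229 and 233 RPKM in Quad and 501 and 531 RPKM in QuadD, against 103 and 99.2 RPKM in Ctrl and 124 and 144 RPKM in Ctrl-D. Hey, a Notch target gene of neurons, had 39.6 and 37.5 RPKM in Quad and 62.9 and 75.03 RPKM in QuadD, against 21.3 and 22.1 RPKM in Ctrl and 20.8 and 20.8 RPKM in Ctrl-D. All 3 rose in both sets and more in QuadD, with differences of -0.82 (adjusted p = 0.00972), -0.76 (adjusted p = 0.0182) and -0.88 (adjusted p = 0.0234). The call of spdo was lost without Ctrl replicate 1 or QuadD replicate 2 (-0.81 to -0.75), that of insb without either Ctrl library or either QuadD library (-0.80 to -0.71), and that of Hey without Quad replicate 2, either Ctrl library, QuadD replicate 2 or either Ctrl-D library (-0.90 to -0.75).

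In dar1 and alrm the Quad libraries were the lowest of the 8. dar1, a Krüppel-like factor of neurons with several dendrites, had 1.63 and 1.77 RPKM in Quad against 15.3 and 15.8 RPKM in Ctrl, and 9.14 and 7.73 RPKM in QuadD against 12.6 and 13.3 RPKM in Ctrl-D. It fell in both sets, with effects of -2.61 in Quad and -0.57 in QuadD, and the difference was -2.05 ± 0.22 (SE; adjusted p = 0.00188), kept without each library. alrm, a marker gene of astrocyte glia, had 3.95 and 2.88 RPKM in Quad against 13.1 and 15.4 RPKM in Ctrl, and 8.39 and 6.97 RPKM in QuadD against 5.41 and 8.56 RPKM in Ctrl-D. Quad libraries were the lowest and Ctrl libraries the highest. The control gap of alrm was 0.96 and did not pass the test (adjusted p = 0.0689), and Quad minus QuadD was -0.98. Its difference was -1.94 ± 0.33 (SE; adjusted p = 0.0168), lost without either Ctrl library, either QuadD library or Ctrl-D replicate 1 (-2.05 to -1.65). nau (nautilus), the fly MyoD gene, differed by its rise in QuadD. It had 12.7 and 11.2 RPKM in Quad against 11.01 and 12.6 RPKM in Ctrl, and 26.3 and 27.4 RPKM in QuadD against 11.02 and 10.6 RPKM in Ctrl-D. Its difference was -1.23 ± 0.19 (SE; adjusted p = 0.0114), lost without Ctrl replicate 2 or either QuadD library (-1.25 to -1.13), with effects of 0.01 in Quad and 1.24 in QuadD.

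Several neural and patterning regulators had the higher effect in Quad. eg (eagle), an orphan nuclear receptor gene of serotonergic and other neuroblast lineages, had 29.98 and 28.4 RPKM in Quad against 2.88 and 2.31 RPKM in Ctrl, and 6.08 and 6.61 RPKM in QuadD against 2.64 and 2.33 RPKM in Ctrl-D. It rose in both sets, and the Quad libraries stood above the other 6, with a difference of 2.00 ± 0.23 (SE; adjusted p = 0.00291). ey (eyeless) and toy (twin of eyeless), the fly Pax6 genes, act in the eye and brain. ey had 28.9 and 28.4 RPKM in Quad against 9.12 and 10.02 RPKM in Ctrl, and 7.81 and 8.54 RPKM in QuadD against 8.69 and 7.22 RPKM in Ctrl-D. toy had 43.1 and 43.9 RPKM in Quad against 19.98 and 16.8 RPKM in Ctrl, and 16.2 and 17.5 RPKM in QuadD against 16.4 and 15.8 RPKM in Ctrl-D. In both genes the Quad libraries stood clear of the other 6, which lay close together. The difference was 1.45 ± 0.21 (SE; adjusted p = 0.0077) for ey and 1.14 ± 0.17 (SE; adjusted p = 0.0102) for toy. hkb (huckebein), a terminal gap gene that also acts in neuroblasts, had 43.3 and 51.8 RPKM in Quad against 17.4 and 19.7 RPKM in Ctrl, and 26.1 and 26.7 RPKM in QuadD against 32.3 and 25.5 RPKM in Ctrl-D, a difference of 1.43 ± 0.20 (SE; adjusted p = 0.00788). The calls of eg, ey and hkb were kept without each library, and that of toy was lost without Ctrl replicate 2 or QuadD replicate 1 (1.02 to 1.09).

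l[1]sc (lethal of scute), a proneural gene of the achaete-scute complex, had 73.7 and 96.2 RPKM in Quad against 34.8 and 28.7 RPKM in Ctrl, and 54.1 and 43.3 RPKM in QuadD against 67.5 and 57.7 RPKM in Ctrl-D. Its control gap passed (-0.96, adjusted p = 0.038), with Ctrl below Ctrl-D, and the difference was 1.75 ± 0.24 (SE; adjusted p = 0.00616), kept without each library. ind, the homeobox gene of the intermediate neural column, had 19.8 and 27.2 RPKM in Quad against 10.7 and 9.52 RPKM in Ctrl, and 13.1 and 14.1 RPKM in QuadD against 17.99 and 13.6 RPKM in Ctrl-D. Its difference was 1.32 ± 0.27 (SE; adjusted p = 0.0386), lost without Quad replicate 2, either Ctrl library, either QuadD library or Ctrl-D replicate 1 (1.10 to 1.39). Together with D these were the called members among 34 neuroblast and asymmetric division genes, or 8.82% of the list against 2.7% of all genes. The median difference of the list was -0.02, against 0.06 over all genes. The interval of the difference lay within 1 log2 unit in either direction in 30 of the 34, and in 7282 of the 10775 genes tested. Of the list, 21 members rose and 2 fell in Quad, and 19 rose and 3 fell in QuadD. Of all genes, 27.9% rose and 24.1% fell in Quad, and 25.4% rose and 26.2% fell in QuadD. The risers of both sets include the misexpressed genes ase, wor and SoxN, and RPKM does not separate transgene from endogenous RNA.

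The temporal series of neuroblasts was followed through 8 genes. Kr and pdm2, a POU factor, were called, or 25% of the list against 2.7% of all genes, and Kr is labelled as a transgene of both sets, with a rise measured in Quad and none in QuadD. pdm2 had 111 and 131 RPKM in Quad against 64.1 and 62.5 RPKM in Ctrl, and 93.8 and 102 RPKM in QuadD against 102 and 84.9 RPKM in Ctrl-D, a difference of 0.85 ± 0.17 (SE; adjusted p = 0.0337), lost without Quad replicate 2, either Ctrl library, either QuadD library or Ctrl-D replicate 1 (0.71 to 0.91). hb (hunchback), the first factor of the series, had 91.3 and 100.4 RPKM in Quad against 36.7 and 31.3 RPKM in Ctrl, and 78.1 and 77.6 RPKM in QuadD against 51.98 and 39.97 RPKM in Ctrl-D. It rose in both sets, and its difference of 0.71 did not pass (interval 0.28 to 1.15). nub, the partner gene of pdm2, differed by 0.88 (interval 0.41 to 1.35) and did not pass either. Kr, hb, nub and pdm2 all had lower levels in both Ctrl libraries than the mean of Ctrl-D, with control gaps of -0.63, -0.42, -0.34 and -0.55, none of which passed the test.

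**Figure D3:**
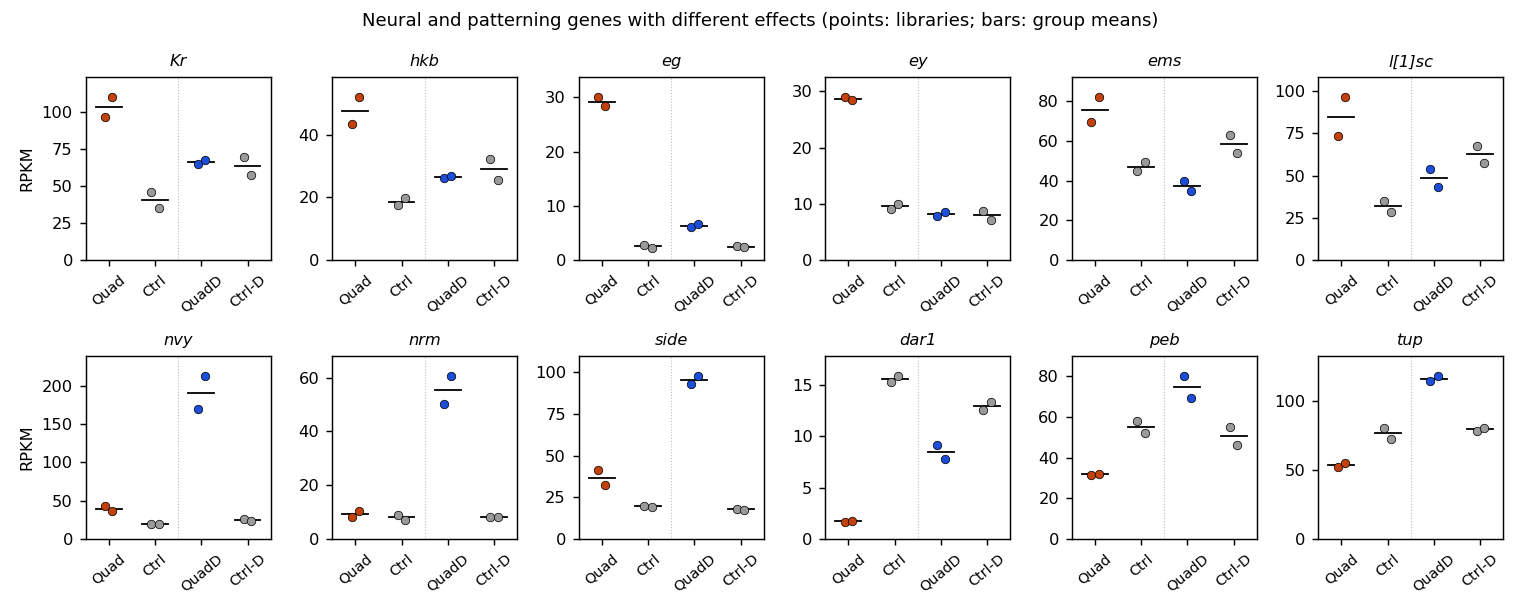
RPKM of 12 neural and patterning genes, 1 panel per gene, with 2 points per group for the libraries and a bar for the group mean; the dotted line separates the experiments and each y axis starts at 0. In the upper row the Quad libraries are the highest of the 8; in the lower row nvy, nrm and side peak in QuadD, dar1 is lowest in Quad, and peb and tup lie on opposite sides of the controls.

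The median difference of segmentation genes lay above 0. Of 24 in the list, Kr, ems, btd and run passed (16.7% against 2.7% of all genes), all with Quad's effect the higher, and Kr among them is labelled as a transgene of both sets. The median difference of the list was 0.55, against 0.06 over all genes. run (runt), a pair-rule gene reused in neurons, had 48.3 and 51.96 RPKM in Quad against 26.1 and 24.7 RPKM in Ctrl, and 40.6 and 38.8 RPKM in QuadD against 40.7 and 33.1 RPKM in Ctrl-D, a difference of 0.84 ± 0.17 (SE; adjusted p = 0.036), lost without Quad replicate 2, either Ctrl library, either QuadD library or Ctrl-D replicate 1 (0.70 to 0.88). The list's median effect was 0.20 in Quad and -0.40 in QuadD, and its control gap had a median of -0.38. Of its 24 intervals 9 lay within 1 log2 unit, against 7282 of the 10775 over all genes tested. Of 19 tested genes of dorsoventral and columnar patterning, ind and brk (brinker), a repressor of Dpp targets, had the higher effect in Quad and tup the lower, 15.8% of the list against 2.7% of all genes. brk fell in both sets, with 25.7 and 29.4 RPKM in Quad against 45.95 and 40.6 RPKM in Ctrl, and 17.9 and 17.7 RPKM in QuadD against 52.2 and 56.4 RPKM in Ctrl-D. Its difference was 0.93 ± 0.16 (SE; adjusted p = 0.0193), lost without either Ctrl library, either QuadD library or either Ctrl-D library (0.84 to 1.01).

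Of 24 tested members of a list of Notch pathway and Bearded genes, Brd, BobA, Tom and Ocho were called (16.7% against 2.7% of all genes), all higher, beside a list median of -0.01, against 0.06 over all genes. Tom and Ocho, which lie beside Brd in the RefSeq gene order, had lower levels in QuadD than in any other group. Tom had 817 and 1229 RPKM in Quad against 1058 and 1068 RPKM in Ctrl, and 575 and 594 RPKM in QuadD against 1709 and 1393 RPKM in Ctrl-D. Its difference was 1.32 ± 0.25 (SE; adjusted p = 0.0301), lost without either Ctrl library, either QuadD library or either Ctrl-D library (1.17 to 1.46). Ocho had 174 and 239 RPKM in Quad against 246 and 250.0 RPKM in Ctrl, and 117 and 113 RPKM in QuadD against 355 and 343 RPKM in Ctrl-D, and its difference of 1.31 ± 0.19 (SE; adjusted p = 0.0077) was kept without each library. No gene of the E[spl] complex, whose members are direct Notch targets, was called. E[spl]m8-HLH, for example, had 153 and 193 RPKM in Quad against 82.95 and 83.95 RPKM in Ctrl, and 301 and 324 RPKM in QuadD against 156 and 126 RPKM in Ctrl-D. It rose in both sets, its control gap passed (-0.74, adjusted p = 0.0406), and the interval of its difference was -0.54 to 0.31. The receptor gene N had an interval of -0.55 to 0.20, and the ligand gene Dl one of -0.19 to 0.56.

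Detoxification enzymes had the highest median of the 32 lists. Over 19 tested glutathione transferase and P450 genes it was 0.67, against 0.06 over all genes, and 4 were called (21.1% against 2.7% of all genes), all higher. GstD7 had 170.4 and 107 RPKM in Quad against 0.982 and 1.42 RPKM in Ctrl, and 0.28 and 0.132 RPKM in QuadD against 0.675 and 1.27 RPKM in Ctrl-D. Both Quad libraries exceeded the other 6, which lay near or below 1 RPKM, and the difference was 6.65 ± 0.37 (SE; adjusted p = 0.000107). GstE3 had 25.9 and 20.9 RPKM in Quad against 85.1 and 87.02 RPKM in Ctrl, and 3.02 and 2.82 RPKM in QuadD against 57.8 and 90.9 RPKM in Ctrl-D. It fell in both sets, and far more in QuadD, with effects of -1.84 in Quad and -4.23 in QuadD and a difference of 2.39 ± 0.28 (SE; adjusted p = 0.00291). GstE6 had 33.4 and 25.4 RPKM in Quad against 93.8 and 104.03 RPKM in Ctrl, and 10.3 and 10.2 RPKM in QuadD against 69.8 and 91.5 RPKM in Ctrl-D, a difference of 1.12 ± 0.23 (SE; adjusted p = 0.0392), lost without Quad replicate 1, either Ctrl library, either QuadD library or Ctrl-D replicate 2 (0.92 to 1.19). GstE3, GstE6 and GstD7 lie in clusters of related genes, and how reads shared between copies were assigned is not given. The calls of GstD7, GstE3 and Cyp6a8 were kept without each library.

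The QuadD libraries were the lowest of the 8 in Tep2, Idgf3, Muc30E, Gs2 and wrapper. Tep2, a thioester protein of innate immunity, had 50.3 and 37.6 RPKM in Quad against 34.5 and 36.02 RPKM in Ctrl, and 4.09 and 2.94 RPKM in QuadD against 26.8 and 33.4 RPKM in Ctrl-D. Only QuadD stood apart, and the difference was 3.09 ± 0.26 (SE; adjusted p = 0.000591). Idgf3, a chitinase-like growth factor gene, had 14.00 and 11.4 RPKM in Quad against 28.1 and 29.7 RPKM in Ctrl, and 0.456 and 0.403 RPKM in QuadD against 16.8 and 22.8 RPKM in Ctrl-D. It fell in both sets, with effects of -1.13 in Quad and -3.85 in QuadD, and the difference was 2.72 ± 0.26 (SE; adjusted p = 0.00117). Muc30E, a mucin gene, had 25.7 and 17.5 RPKM in Quad against 101 and 78.2 RPKM in Ctrl, and 0.651 and 0.348 RPKM in QuadD against 48.1 and 65.5 RPKM in Ctrl-D. It also fell in both sets, with effects of -2.02 in Quad and -5.26 in QuadD, and the difference was 3.24 ± 0.32 (SE; adjusted p = 0.00135). Gs2, the glutamine synthetase gene that the list of glia holds, had 49.9 and 58.4 RPKM in Quad against 107 and 122 RPKM in Ctrl, and 15.6 and 16.6 RPKM in QuadD against 117 and 116 RPKM in Ctrl-D, with a difference of 1.71 ± 0.15 (SE; adjusted p = 0.000777). These 4 calls were kept without each library. wrapper, an adhesion protein gene of midline glia, had 57.2 and 39.2 RPKM in Quad against 36.2 and 37.7 RPKM in Ctrl, and 12.96 and 12.1 RPKM in QuadD against 29.4 and 37.7 RPKM in Ctrl-D. Its difference was 1.69 ± 0.26 (SE; adjusted p = 0.0101), lost without either Ctrl library (1.67 to 1.72). Gs2 and wrapper were the called members among 15 tested genes of the glia list (13.3% against 2.7% of all genes), whereas alrm, outside that list, had a negative difference as given above. repo, the common regulator of glia, rose in both sets, by 1.09 in Quad and 1.16 in QuadD, with an interval of the difference of -0.56 to 0.42. The 4 glial markers, all past 1 RPKM, summed to 276 and 228 RPKM in Quad against 149 and 140 RPKM in Ctrl, and to 212 and 207 RPKM in QuadD against 159 and 169 RPKM in Ctrl-D; their part in these differences was not tested.

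Epidermis and cuticle genes fell steeply in both sets, with median effects of -2.16 in Quad and -1.98 in QuadD. Of 34 tested, 31 fell in Quad and 30 in QuadD, where 24.1% of all genes fell in Quad and 26.2% in QuadD. The difference was called in ect alone, 2.94% of the list and near the 2.7% of all genes. ect (ectodermal) had 14.9 and 12.1 RPKM in Quad against 346 and 543 RPKM in Ctrl, and 1.11 and 1.14 RPKM in QuadD against 206 and 264 RPKM in Ctrl-D. The difference of 1.87 ± 0.30 (SE; adjusted p = 0.0122) was lost without Ctrl-D replicate 2 (1.69). Osi6, a member of the Osiris family of cuticle-producing cells, had 43.2 and 55.3 RPKM in Quad against 1044 and 2279.7 RPKM in Ctrl, and 2.58 and 3.13 RPKM in QuadD against 553 and 789 RPKM in Ctrl-D. Its difference was 2.48 ± 0.45 (SE; adjusted p = 0.0245), lost without Quad replicate 2, either QuadD library or either Ctrl-D library (2.22 to 2.73). At such low remaining levels in QuadD the pseudocount of 1 RPKM understates the fall. Of 18 tested Osiris and Tweedle genes, 17 fell in Quad and 12 in QuadD, and Osi6 and TwdlC were called (11.1% against 2.7% of all genes). Their median control gap was 1.5, and their differences ran from -1.71 to 2.48. None of their 18 intervals lay within 1 log2 unit, against 7282 of the 10775 over all genes tested. TwdlC was close to the lowest value of the tables in QuadD and Ctrl-D and kept its call in no fit that left out a library. Without either Ctrl library it no longer met the level filter. Its control gap of 2.02 (adjusted p = 0.00741) was larger in size than its difference of -1.38. The list holds only some Tweedle genes, and TwdlL and TwdlM outside it, named after their values were seen, were also called, with differences of -1.56 (adjusted p = 0.0422) and -1.72 (adjusted p = 0.0397); the control gap was 2.73 (adjusted p = 0.00288) for TwdlL and 4.52 (adjusted p = 0.000349) for TwdlM, and each kept its call in 1 of the 8 fits that left out a library. The 5 epidermal markers, of which ect is 1, had lower sums in Quad than in Ctrl and in QuadD than in Ctrl-D, as given above. Their part in the differences of these genes was not tested.

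Some genes had low RPKM outside Quad. lcs had 53.3 and 25.96 RPKM in Quad and was listed at the floor of the tables, 0.002 RPKM in experiment 1 and 0.003 RPKM in experiment 2, in all 6 other libraries; no fold is given against such values, and without either Quad library the gene no longer met the level filter. Obp44a, of the odorant-binding protein family, had 74.5 and 39.9 RPKM in Quad against 2.15 and 4.22 RPKM in Ctrl, and 5.87 and 3.29 RPKM in QuadD against 1.48 and 1.77 RPKM in Ctrl-D. It rose in both sets, with Quad replicates far apart, and the difference of 2.72 ± 0.50 (SE; adjusted p = 0.0252) was lost without Ctrl replicate 1, QuadD replicate 2 or either Ctrl-D library (2.36 to 2.80). Among antimicrobial peptide genes CecC had 8.53 and 6.33 RPKM in Quad against 0.002 and 0.238 RPKM in Ctrl, and 0.197 and 0.927 RPKM in QuadD against 0.475 and 0.003 RPKM in Ctrl-D. Drs had 2.14 and 2.04 RPKM in Quad against 0.207 and 0.002 RPKM in Ctrl, and 1.06 and 0.418 RPKM in QuadD against 0.856 and 1.34 RPKM in Ctrl-D. Both stood at a few RPKM in Quad and lower elsewhere, and the differences were 2.59 ± 0.43 (SE; adjusted p = 0.016) for CecC and 1.77 ± 0.35 (SE; adjusted p = 0.037) for Drs. CecC no longer met the level filter without either Quad library, and its call was lost without either Ctrl library, QuadD replicate 1 or Ctrl-D replicate 1 (2.24 to 2.74). The call of Drs was lost without every library but QuadD replicate 1, left out in turn. Its control gap of -0.92 did not pass the test (adjusted p = 0.0869), but it was larger in size than Quad minus QuadD, 0.85.

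Further named genes with Quad's effect below QuadD's stand outside the lists of neural genes. Pex7, the receptor that brings a class of enzymes into peroxisomes, had 18.4 and 11.95 RPKM in Quad against 23.6 and 18.6 RPKM in Ctrl, and 61.3 and 64.9 RPKM in QuadD against 15.6 and 20.6 RPKM in Ctrl-D. Only QuadD stood apart, and the difference of -2.23 ± 0.30 (SE; adjusted p = 0.00587) was kept without each library. Gr2a, a gustatory receptor gene, had 2.86 and 2.7 RPKM in Quad against 1.93 and 1.06 RPKM in Ctrl, and 16.02 and 17.3 RPKM in QuadD against 2.1 and 1.51 RPKM in Ctrl-D. Its difference was -2.04 ± 0.31 (SE; adjusted p = 0.0102), lost without QuadD replicate 2 (-1.99). Nep4, a neprilysin peptidase gene, had 8.03 and 4.22 RPKM in Quad against 3.54 and 3.68 RPKM in Ctrl, and 15.8 and 17.03 RPKM in QuadD against 2.07 and 2.66 RPKM in Ctrl-D. The difference of -1.80 ± 0.36 (SE; adjusted p = 0.036) was lost without either Ctrl library, either QuadD library or either Ctrl-D library (-1.93 to -1.68). Ndg, the gene of nidogen in basement membranes, had 112 and 81.97 RPKM in Quad against 113 and 136 RPKM in Ctrl, and 159.6 and 152 RPKM in QuadD against 83.3 and 87.6 RPKM in Ctrl-D. Its difference was -1.23 ± 0.21 (SE; adjusted p = 0.0164), lost without Ctrl replicate 2, either QuadD library or either Ctrl-D library (-1.26 to -1.10). Spn28Da, a serpin gene, was the lowest of the named differences at -2.74 ± 0.31 (SE; adjusted p = 0.00231). It had 3.15 and 4.09 RPKM in Quad against 24.4 and 17.7 RPKM in Ctrl, and 5.8 and 4.31 RPKM in QuadD against 3.16 and 3.39 RPKM in Ctrl-D, so that only the Ctrl libraries stood apart. Its effect of 0.49 in QuadD did not pass, and its control gap was 2.35 (adjusted p = 0.00426).

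Proliferation genes rose in both sets. All 39 tested DNA replication genes rose in Quad and 38 in QuadD, where 27.9% of all genes rose in Quad and 25.4% in QuadD, with median effects of 1.08 in Quad and 0.81 in QuadD. None passed the test of the difference. Of the 39 differences 38 were above 0, as were 6261 of the 10775 over all genes tested, whose median was 0.06. The list's differences had a median of 0.22 and a range of -0.02 to 0.45. Of its intervals, 36 of 39 lay within 1 log2 unit, as did 7282 of the 10775 over all genes tested. The median control gap of the list was -0.42, which is larger in size than the median of Quad minus QuadD, -0.17. Of 34 mitosis genes, 33 rose in each set, and pim (pimples), the fly securin, was the only one called, 2.94% of the list and near the 2.7% of all genes. pim had 105 and 117 RPKM in Quad against 38.8 and 34.97 RPKM in Ctrl, and 80.8 and 86.4 RPKM in QuadD against 56.7 and 48.8 RPKM in Ctrl-D. Its difference was 0.90 ± 0.15 (SE; adjusted p = 0.0182), lost without either Ctrl library, either QuadD library or Ctrl-D replicate 1 (0.80 to 0.98). The control gap of pim, -0.50, did not pass the test (adjusted p = 0.0566), but it was larger in size than Quad minus QuadD, 0.40. Among 24 cell cycle drivers and brakes none was called, and 23 intervals lay within 1 log2 unit.

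None of 41 cytoplasmic ribosomal protein genes, 26 Polycomb and trithorax genes or 24 ribosome biogenesis genes was called, and every interval in these 3 lists lay within 1 log2 unit. Of the 10775 intervals over all genes tested, 7282 did so. With 2.7% of all genes called, a count of 0 in lists of this length is near the share over all genes. Median differences were 0.09 for cytoplasmic ribosomal proteins, 0.07 for Polycomb and trithorax genes and 0.36 for ribosome biogenesis. Sarcomere genes were not called either, but only 6 of their 24 intervals lay within 1 log2 unit and their median control gap was 0.82, so that for the other 18 a 2-fold difference lay within the interval. No member of the lists for septate junctions, ecdysone response, apoptosis, heat shock, maternal and germ line or glycolysis genes was called. Intervals lay within 1 log2 unit in 19 of 21 septate junction, 12 of 16 apoptosis and 8 of 13 glycolysis genes. They did so in only 8 of 21 maternal and germ line, 7 of 22 ecdysone and 6 of 20 heat shock genes. For the rest a 2-fold difference lay within the interval. The other lists with calls are to be read against the 2.7% of all genes. Trachea and salivary gland had 3 higher and 1 lower of 20, and the gut 2 higher and 2 lower of 22. Mesoderm had 1 higher and 2 lower of 26, and the higher one is Kr, labelled as a transgene of both sets. Neuron identity had 3 higher and 3 lower of 22, hemocytes 1 higher of 13 and immune effectors 2 higher of 11. Of the called immune effectors, CecC met the level filter only through its Quad libraries. The other, Drs, kept its call in 1 of the 8 fits that left out a library. Neuron differentiation had 1 lower of 32 (3.12%), the Hox genes 1 lower of 8 and basement membrane 1 lower of 19 (5.26%).

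**Figure D4:**
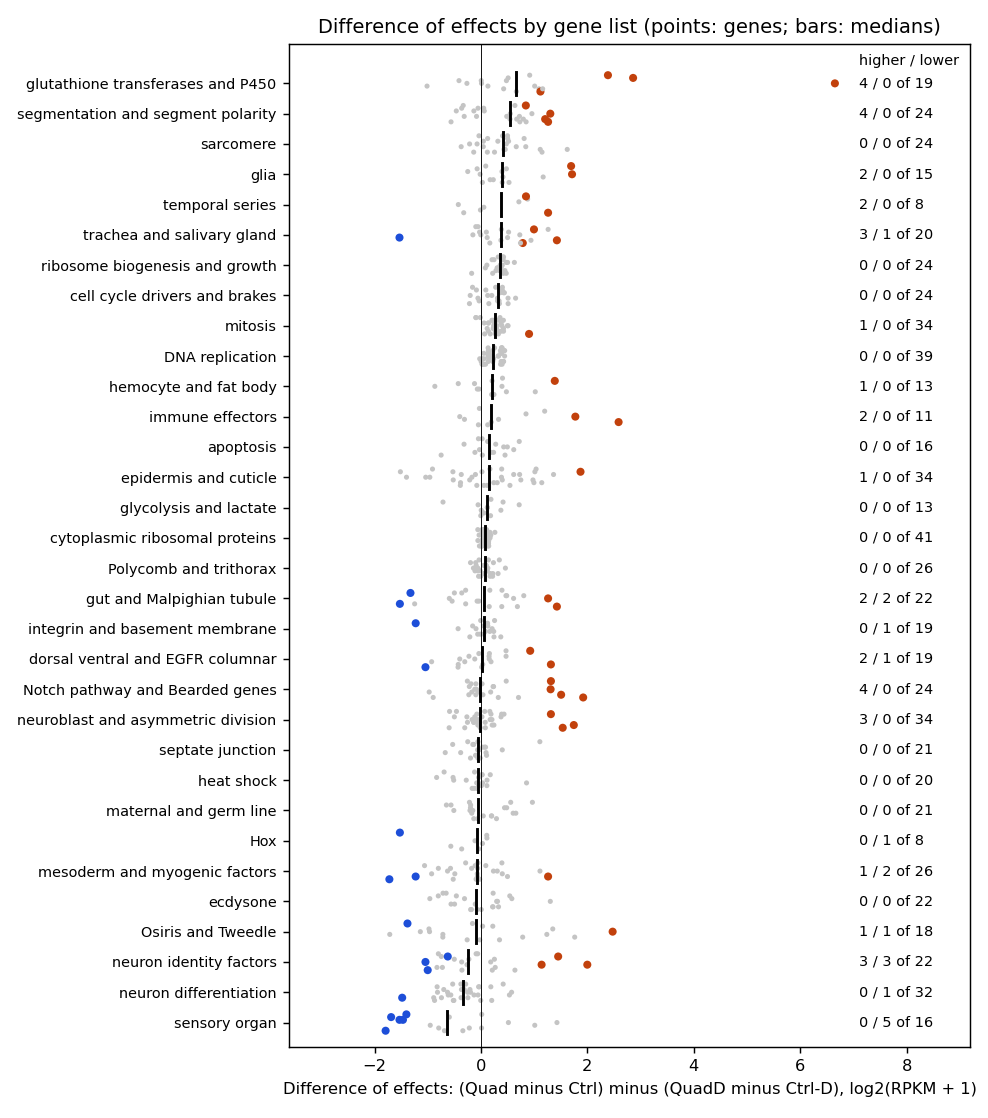
Difference of effects in log2(RPKM + 1) (x axis) for the tested members of 32 gene lists (rows, ordered by median), 1 point per gene, with called genes in orange (Quad's effect above) or blue (below) and a black bar at the list's median. Sensory organ genes have the lowest median, -0.64, and glutathione transferase and P450 genes the highest, 0.67; some genes, such as Kr, stand in several lists.

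The control levels bear on each difference because both controls enter it. Between Ctrl and Ctrl-D 133 genes passed, or 1.23% of those tested, 81 higher in Ctrl (0.752%) and 52 lower (0.483%). That count was unstable: it was 958 without Quad replicate 1 and 983 without Quad replicate 2, 4 without Ctrl replicate 2, 66 without QuadD replicate 1 and 64 without QuadD replicate 2, and 8 without Ctrl-D replicate 1 and 5 without Ctrl-D replicate 2. Of the 291 genes whose effects differed, 18 had a control gap past the test (6.19%), 6 of them among the higher and 12 among the lower genes. The gap was under 0.5 log2 units in size in 227 of the 291 (78%), as in 83.9% of all genes tested, and it was larger in size than Quad minus QuadD in 28. TwdlM, TwdlC, BobA, Brd, D, l[1]sc, Alh and Spn28Da are among the 18.

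**Figure D5:**
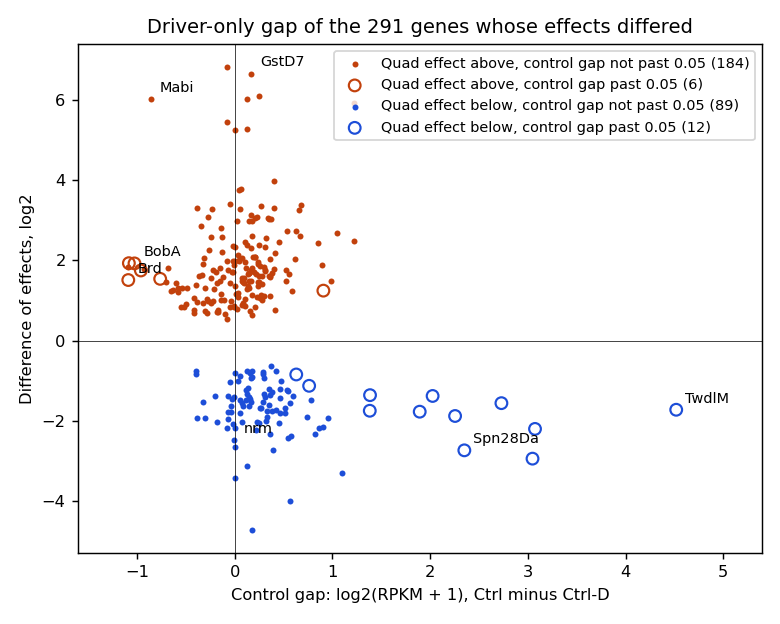
Difference of effects (y axis, log2) against the control gap, Ctrl minus Ctrl-D (x axis, log2(RPKM + 1)), for the 291 called genes; open circles mark the 18 genes whose gap passed the test. Most points lie within 0.5 of a gap of 0, and the open circles with gaps above 1, such as Spn28Da and TwdlM, all have negative differences. The gap is subtracted in the difference, so a large positive gap lowers it by construction.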

How the data were processed

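RNA sequencing of whole embryos gave 2 deposited tables, 1 for each experiment, joined here on gene symbol (17321 genes). Total RPKM on a linear scale, given by the authors per the file headers, is the value behind every result. Per the file headers the authors also deposited raw count columns. For 414 genes these hold a dash, and of 7660 genes with at least 10 RPKM in experiment 1, 2791 had a count of 0 in all 4 libraries, so no count model served as the main test. Per the labels' protocols, reads were single and 50 bp long, RNA was extracted with an RNeasy kit, and each experiment was sequenced on 1 lane. The genome build, the aligner, the annotation and whether counting used strand were not given in the sources used here; no coordinates or promoter sequences are printed, and reads of overlapping or antisense genes cannot be told apart.

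Values were taken as log2(RPKM + 1) and genes that reached 1 RPKM in at least 2 of the 8 libraries were fitted with limma 3.58.1 (R 4.3.3) as 4 group means, with a trended moderated test and Benjamini-Hochberg adjustment at 0.05. The Quad effect, the QuadD effect, their difference and the control gap are contrasts of that 1 fit; intervals are 95%. The fit was tested on simulated data. Fold changes on this scale are understated for genes of low RPKM. Relative depth, from reads per RPKM unit in the 3005 of 3954 genes whose counts followed RPKM within 1%, ran at 83.1% and 87.2% for Quad against 85.6% and 83% for Ctrl, and at 100% and 42.5% for QuadD against 41.5% and 39.6% for Ctrl-D. Within every group the replicates differed by more than sampling noise (6.56 to 25.1 times its variance, from a chi-square over genes), so none was a repeated count of 1 library; whether they came from separate collections rests on the labels alone.

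The members of the comparison and the 32 gene lists were chosen with earlier results of these data known, and no list was tested as a set. Genes named were the transgenes and construct genes, CycE, E2f1, stg and dap, the 10 largest differences per direction and the 6 largest per direction among opposite effects (mean of at least 10 RPKM in some group and a gene name), and up to 3 called genes with the smallest p per list; other names were chosen after their values were seen. Of 17321 symbols, 12679 are current and 16426 are current or older in the reference gene names; square brackets in symbols are those of the tables, and 14 list members were not matched. Gene order came from the RefSeq table of Release 6, used for neighbours only. Alternatives were 2 other pseudocounts, 2 filters, RLE, TMM and quantile scaling, limma without trend or with a robust trend, voom on the genes with usable counts, a block for the replicate number, and the removal of each library in turn.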

Additional observations from a re-analysis of the deposited data

Results flagged for a closer look

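The difference of effects between the wild-type and the fused set was tested directly, so each gene below is listed because its Quad and QuadD effects differed by that test. Over all genes 291 differed, and in 50 of them both effects passed with opposite signs.

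Among genes that bear a gene name and whose mean reached 10 RPKM in some group, the 6 with the largest differences that rose in Quad and fell in QuadD were Mabi (6.02), Cyp6a8 (2.86), Lip4 (2.59), Hexo2 (1.97), BobA (1.92) and D (1.54), as log2 differences; genes outside these limits, some with larger differences, are not named. Within the same limits, the 6 with the largest differences that fell in Quad and rose in QuadD were Hand (-1.72), sv (-1.69), sens (-1.53), lab (-1.52), cato (-1.47) and cpo (-1.37). All of the first 6 kept their call without each library in turn. The others kept it in 3 of 8 such fits for Hand, 6 for sv, 4 for sens, 7 for lab, 2 for cato and 2 for cpo.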

How the results depend on the processing

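No called gene turned its sign in any of the 19 alternatives run, and over the named genes 1014 comparisons with an alternative kept their side of the threshold while 190 lost it. The number of calls moved more. With no filter on low values, which adds genes to the adjustment, the difference had 186 calls (111 with Quad's effect the higher), the control gap 78 and the opposite class 26; of the 291 main calls 91 (31.3%) were kept there, and of 66 named genes 34 lost their call. With voom, which could be run on 3005 genes only, the difference had 90 calls (64 higher and 26 lower), the Quad effect 1806, the QuadD effect 1610, the control gap 88 and the opposite class 21; of the 68 main calls tested there, 67 were kept. Without the trend in limma the control gap had 30 calls. Leaving out each library in turn gave 126 to 495 calls of the difference (89 to 245 higher, 37 to 250 lower), 24 to 82 opposite genes, 3627 to 6019 QuadD effects and 4 to 983 control gaps; the cause was not tested. The share of calls with Quad's effect the higher was 65.3%, and it was 49.5% without Quad replicate 1. Quantile scaling gave 58.3%, RLE 60.4% and TMM 62%.

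The labels number the replicates without saying what a number shares. Same-numbered libraries did not deviate together over genes (r = -0.044 for Quad and Ctrl, -0.0867 for QuadD and Ctrl-D), and the main fit did not pair them. Whether a number stands for a shared collection or preparation cannot be told from these correlations. With the replicate number as a block the difference had 174 calls (118 higher and 56 lower) and the control gap 11.

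Depth limits the genes of low RPKM most, since Ctrl-D and QuadD replicate 2 had 39.6% to 42.5% of the depth of QuadD replicate 1. The median 95% interval of a difference extended 0.505 log2 units to either side before any adjustment, and a call at an adjusted p needs a larger difference than that.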

Other observations

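Genes of cilia that stand outside the sensory organ list were also among those with Quad's effect below QuadD's; they were picked after their values were seen and are given as values. Root, the gene of the ciliary rootlet protein, had 0.866 and 0.784 RPKM in Quad against 6.4 and 5.96 RPKM in Ctrl, and 6.02 and 5.38 RPKM in QuadD against 3.32 and 4.56 RPKM in Ctrl-D. Both Quad libraries were under 1 RPKM and the other 6 were not, and the difference was -2.43 ± 0.27 (SE; adjusted p = 0.00231), kept without each library in turn. tectonic and B9d2 encode proteins of the ciliary transition zone. tectonic had 0.945 and 0.352 RPKM in Quad against 7.29 and 7.02 RPKM in Ctrl, and 3.51 and 3.65 RPKM in QuadD against 5.45 and 7.44 RPKM in Ctrl-D. B9d2 had 0.341 and 0.163 RPKM in Quad against 6.45 and 7.52 RPKM in Ctrl, and 3.97 and 2.17 RPKM in QuadD against 7.17 and 7.15 RPKM in Ctrl-D. Both fell in both sets and further in Quad, with differences of -1.64 (adjusted p = 0.0351) and -1.63 (adjusted p = 0.0422). The call of tectonic was lost without Quad replicate 2, either Ctrl library, either QuadD library or either Ctrl-D library (-1.84 to -1.38), and that of B9d2 without Quad replicate 2, either Ctrl library, QuadD replicate 1 or either Ctrl-D library (-1.73 to -1.31).

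Some called genes are neighbours. In the RefSeq gene order, 44 of the 288 called genes that matched it stand in 19 runs of adjacent tested genes called in the same direction. The longest runs had 4 genes: Tom, Brd, Ocho and CR43432 with Quad's effect the higher, and CG13560, CG34105, CG12491 and CG11300, also higher. Mabi and CG5867 form a run, as do GstE6 and GstE7, Drgx and CG3513, and CG10300 and nau. Counting did not state strand, so reads of overlapping neighbours may be shared. CG5867 had 195 and 163 RPKM in Quad against 1.12 and 0.809 RPKM in Ctrl, and 0.815 and 0.564 RPKM in QuadD against 1.04 and 1.09 RPKM in Ctrl-D. Mabi, beside it, had 137 and 150.2 RPKM in Quad, and in both genes the Quad libraries stood far above the other 6. The difference of CG5867 was 6.81 ± 0.26 (SE; adjusted p = 1.64e-05).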
